A study of Mus musculus with 17 samples.

Results

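*Dppa2*, *Dppa3*, *Dppa4*, *Dppa5a*, *Tcl1* and *Utf1*, which encode proteins of the germ line, the early embryo and pluripotent cells, were followed in mouse embryonic stem cells that differentiated under retinoic acid (RA). The 6 genes were taken by their symbols from the 54532 gene entries of the expression table. They were selected on their measured values in these libraries, so what is given for them is a description. Where a call or an interval is given for 1 of the 6, it describes the values that chose the gene and is no independent test. Each of the 6 was among the 21871 genes that entered the comparisons, which had a level of at least 1 in 2 or more libraries. Levels are in TPM, the reads of a gene per length as a share of the library, which sums to the same total in each. The study asked whether pluripotency needs *Usb1*, an exonuclease that trims the 3' end of U6 snRNA. The 17 libraries came from R1 cells, either wild-type or *Usb1* knockout, without RA (day 0) or with RA for 1 day or 3 days. There were 2 wild-type libraries at day 0 and 3 libraries in each of the other 5 groups. All knockout libraries came from 1 clonal line, KO-1, so the knockout and other differences between the lines cannot be told apart. The labels number the libraries as repeats, and the paper describes them as independent biological replicates without saying how they were grown. The tests on other genes measure the spread between these libraries, not between clonal lines.

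Dppa2 and Dppa4 are partner proteins with a SAP domain, a DNA-binding fold. They act upstream of the transcription factor Dux and the genes of the 2-cell embryo, and they keep bivalent promoters free of DNA methylation. Dppa3, also called Stella, is a maternal and germ cell protein that binds Uhrf1 and shields DNA of the early embryo from oxidation by Tet3. Dppa5a is an RNA-binding protein with a KH domain. Tcl1 is a cofactor that raises the activity of Akt kinases. Utf1 is a chromatin protein of pluripotent cells that sits at bivalent genes and recruits the decapping factor Dcp1a to their transcripts.

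In the GRCm38 annotation, *Dppa4* (ENSMUSG00000058550, chr16:48283733-48294237, plus strand) and *Dppa2* (ENSMUSG00000072419, chr16:48303908-48319723, plus strand) were neighbours with a gap of 9.67 kb. *Dppa3* (ENSMUSG00000046323) lay at chr6:122626410-122630272 on the plus strand. *Dppa5a* (ENSMUSG00000060461) lay at chr9:78367052-78368177 on the minus strand. *Tcl1* (ENSMUSG00000041359) lay at chr12:105216750-105222793 on the minus strand, and *Utf1* (ENSMUSG00000047751) at chr7:139943789-139945112 on the plus strand. None of the 6 shared an exon base with another annotated gene.

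*Tcl1* and *Utf1* had the lowest levels at day 3 relative to day 0, and their promoters are shown because RefSeq sequence was at hand for these 2 of the 6 genes. Each sequence is from GRCm38.p6, from 250 bases before to 50 bases after the RefSeq start site, and reads in the direction of the gene. Capitals mark the GC box, GGGCGG, on either strand. The *Tcl1* window is chr12:105222688-105222987 (minus strand) and the *Utf1* window is chr7:139943606-139943905 (plus strand).
Tcl1: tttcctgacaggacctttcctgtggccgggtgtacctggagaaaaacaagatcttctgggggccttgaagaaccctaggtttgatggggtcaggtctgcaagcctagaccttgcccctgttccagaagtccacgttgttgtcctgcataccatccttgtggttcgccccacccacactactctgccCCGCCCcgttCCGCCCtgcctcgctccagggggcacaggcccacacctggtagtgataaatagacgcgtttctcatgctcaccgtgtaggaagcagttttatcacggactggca
Utf1: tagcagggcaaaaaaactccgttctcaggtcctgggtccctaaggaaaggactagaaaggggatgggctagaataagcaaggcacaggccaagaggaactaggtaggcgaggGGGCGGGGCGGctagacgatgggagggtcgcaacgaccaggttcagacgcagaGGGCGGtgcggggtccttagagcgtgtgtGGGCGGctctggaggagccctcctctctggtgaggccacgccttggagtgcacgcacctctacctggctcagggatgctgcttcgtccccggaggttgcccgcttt
The *Tcl1* window held 2 GC boxes, read on the opposite strand, which begin 64 and 54 bases before the start site. The *Utf1* window held 4, which begin 138, 133, 85 and 56 bases before it, the first pair overlapping by 1 base. A GC box was present in 35.7% of the 32851 windows of this length. The sequence AGGTCA, a half-site of nuclear receptors, was in neither window and in 16.3% of all. The octamer ATGCAAAT was in neither window and in 1.74% of all, and TATAAA was in neither and in 13.6% of all. CpG dinucleotides numbered 11 in the *Tcl1* window and 17 in the *Utf1* window, against a median of 7. The GC content was 56.7% and 62.0%, against a median of 52.7%.

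Reads on genes, recovered from the deposited TPM, numbered 15404379 to 17300186 per library. Wild-type replicate 1 at day 0 stood apart at low values, with 239 genes at 1 read against 1224 to 2467 in the other libraries. *Usb1* was at 32.0 to 56.9 TPM in the 8 wild-type libraries and at 14.7 to 21.4 TPM in the 9 knockout libraries. The Y-linked genes *Eif2s3y* (61.8 to 85.6 TPM) and *Ddx3y* (50.1 to 67.5 TPM) were present in the wild-type libraries and were at 0 in every knockout library. The embryonic stem cell markers *Pou5f1*, *Sox2*, *Nanog*, *Esrrb* and *Zfp42* summed to 4780 to 4830 TPM in wild-type and 4630 to 5090 TPM in knockout libraries at day 0, so the defining markers of the labelled cell type were present. Of the fibroblast feeder markers, *Postn* and *Dcn* were at 0 in all libraries of days 0 and 1. *Col1a1* was at 1.08 to 5.93 TPM and *Thy1* at 1.54 to 7.16 TPM in those libraries, and *Col1a2* and *Twist2* reached at most 0.301 and 0.302 TPM.

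**Figure D1:**
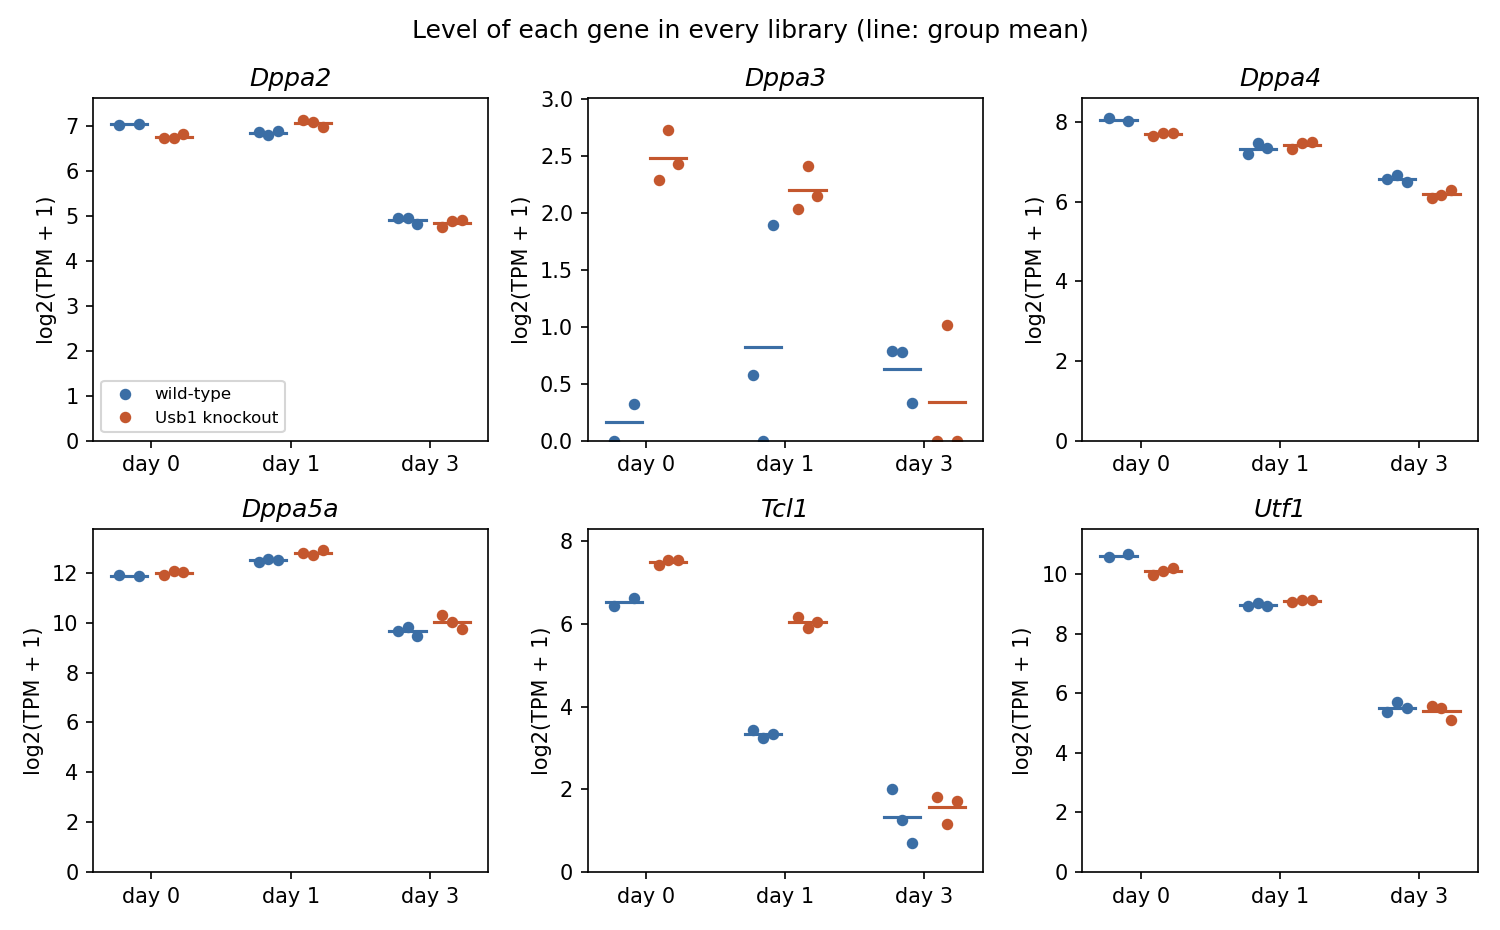
Level of each of the 6 genes in every library, as log2(TPM + 1), by day, with wild-type in blue and *Usb1* knockout in orange. Each point is 1 library and each line a group mean. *Tcl1* at day 1 lies at 8.40 to 9.77 TPM in wild-type and 58.8 to 71.2 TPM in knockout libraries, and the axis of *Dppa3* spans far lower levels than the others.

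TPM is scaled by gene length, so the levels of the 6 genes can be set side by side. In wild-type cells at day 0 the mean level was highest for *Dppa5a*, at 3800 ± 35.0 TPM (SD, n = 2). *Utf1* was at 1578 ± 94.2 TPM, *Dppa4* at 266 ± 8.23 TPM, *Dppa2* at 131 ± 1.92 TPM and *Tcl1* at 91.9 ± 9.24 TPM. *Dppa3* was at the limit of detection, with 1 read in the 2 libraries together.

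*Dppa2*, of the SAP-domain pair, had a day 0 level of 129.6 and 132 TPM in the wild-type libraries, against 106, 105 and 113 TPM in the knockout libraries. At day 1, wild-type libraries had 116, 112 and 118 TPM and knockout libraries 140.4, 136 and 125 TPM. At day 3, wild-type libraries had 29.9, 30.2 and 27.2 TPM and knockout libraries 26.0, 28.8 and 28.95 TPM. The knockout libraries were thus all below wild-type at day 0 and all above it at day 1, and the genotypes overlapped at day 3. As a share of its own day 0 mean, *Dppa2* was at 87.9% in wild-type and 124% in knockout cells at day 1, and at 22.2% and 25.9% at day 3. In the order of group means, knockout day 1 came first and overlapped wild-type day 0, wild-type day 1 overlapped knockout day 0, and the day 3 groups stood below all others.

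*Dppa4*, the partner of *Dppa2*, had a day 0 level of 272 and 260.2 TPM in the wild-type libraries, against 201, 211 and 212 TPM in the knockout libraries. With 1 day of RA, it stood at 145, 177 and 161 TPM in the wild-type and 158, 176 and 179 TPM in the knockout libraries. With 3 days of RA, it stood at 94.1, 101 and 89.2 TPM in the wild-type and 67.0, 70.9 and 76.9 TPM in the knockout libraries. Knockout libraries were below wild-type at days 0 and 3 without overlap, and the genotypes overlapped at day 1. The ratio of the knockout to the wild-type mean was 0.782 at day 0, 1.06 at day 1 and 0.757 at day 3. Of the 5 genes with reads in every library, *Dppa4* kept the largest share of its day 0 level at day 3, with 35.6% in wild-type and 34.4% in knockout cells. The wild-type level at day 1 was 60.4% of day 0, against 87.9% for *Dppa2*, so the pair moved to different extents on the first day.

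*Dppa5a*, the KH-domain gene, had a day 0 level of 3825 and 3775 TPM in the wild-type libraries, against 3876, 4309.6 and 4233 TPM in the knockout libraries. At day 1, wild-type libraries had 5479, 6022 and 5876.5 TPM and knockout libraries 7050.4, 6762 and 7762 TPM. At day 3, wild-type libraries had 823, 897 and 709 TPM and knockout libraries 1250.5, 1034 and 857 TPM. Its highest levels were therefore those of day 1, where every library lay above every library of day 0, and the knockout libraries lay above wild-type. The mean at day 1 was 152% of day 0 in wild-type and 174% in knockout cells, a log2 difference of 0.61 and 0.80, each under the 2-fold limit. At day 3 the level was 21.3% and 25.3% of day 0, and the genotypes overlapped.

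*Utf1*, which encodes the chromatin protein, had a day 0 level of 1512 and 1645 TPM in the wild-type libraries, against 1015, 1108 and 1175 TPM in the knockout libraries. With 1 day of RA, it stood at 491, 528 and 490.0 TPM in the wild-type and 541, 559 and 556 TPM in the knockout libraries. With 3 days of RA, it stood at 40.0, 51.2 and 44.0 TPM in the wild-type and 46.6, 44.9 and 33.6 TPM in the knockout libraries. The genotypes did not overlap at day 0, with knockout lower, nor at day 1, with knockout higher, and they overlapped at day 3. The level at day 1 was 31.9% of day 0 in wild-type and 50.2% in knockout cells. At day 3 the mean was 35.0-fold below day 0 in wild-type and 26.4-fold below it in knockout cells.

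*Tcl1*, the Akt cofactor gene, had a day 0 level of 85.3 and 98.4 TPM in the wild-type libraries, against 170.2, 186 and 187 TPM in the knockout libraries. At day 1, wild-type libraries had 9.77, 8.40 and 9.07 TPM and knockout libraries 71.2, 58.8 and 65.0 TPM. At day 3, wild-type libraries had 3.05, 1.37 and 0.629 TPM and knockout libraries 2.52, 1.23 and 2.31 TPM. The knockout libraries were above wild-type without overlap at days 0 and 1, and the genotypes overlapped at day 3. The ratio of the knockout to the wild-type mean was 1.97 at day 0, 7.16 at day 1 and 1.20 at day 3. After 1 day of RA, *Tcl1* was at 9.89% of its day 0 level in wild-type and at 35.9% in knockout cells. After 3 days it was 54.6-fold below day 0 in wild-type and 89.5-fold below it in knockout cells, on 5 to 26 reads per library. The order of its group means put knockout before wild-type on each day, and only the 2 groups of day 3 overlapped among neighbours in that order.

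*Dppa3*, the gene of the Stella protein, had a day 0 level of 0 and 0.253 TPM in the wild-type libraries, against 3.89, 5.63 and 4.38 TPM in the knockout libraries. With 1 day of RA, it stood at 0.493, 0 and 2.72 TPM in the wild-type and 3.09, 4.32 and 3.44 TPM in the knockout libraries. With 3 days of RA, it stood at 0.727, 0.711 and 0.260 TPM in the wild-type and 0, 1.02 and 0 TPM in the knockout libraries. The genotypes did not overlap at days 0 and 1, with knockout higher, and overlapped at day 3. These levels rest on few reads, 58 in the 3 knockout libraries at day 0 against 1 in the 2 wild-type libraries, a rate ratio of 38.1 (95% exact interval 6.58 to 1530). At day 1 the reads were 48 and 13, a ratio of 3.43 (1.83 to 6.90), and 11 of the 13 wild-type reads came from 1 library. At day 3 they were 4 and 7, a ratio of 0.548 (0.118 to 2.16). The intervals cover counting error only. Under plain counting, a count of 0 allows up to 3 reads. That is 0.704 TPM in the wild-type library at day 0 and 0.651 to 0.715 TPM in the 3 libraries at 0 on days 1 and 3. Genes at 1 read numbered 239 and 1352 in wild-type replicates 1 and 2 of day 0 and 1224 in knockout replicate 1 of day 3. The other libraries had 2150 to 2467. Low counts in those libraries may not follow plain counting, so the intervals of days 0 and 3 and the limits of zeros there are uncertain.

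Reads on near-identical copies limit how far some of these levels belong to the named gene, since reads of 1 copy can be counted on another. With at least 90% identity over at least 100 bases, *Dppa5a* had 10 such copies, *Dppa2* 5, *Dppa3* 3 and *Dppa4* 2, while *Tcl1* and *Utf1* had none. The pseudogene *Gm9788* (99.3% identity to *Dppa2*) reached 21.5 TPM and at most 6.14% of the reads of *Dppa2*. *Gm14058* (98.9% identity to *Dppa4*) reached 28.2 TPM and at most 5.98% of the reads of *Dppa4*, and *Dppa5c* reached 69.9 TPM and at most 0.951% of those of *Dppa5a*. *Pigp*, a protein-coding gene with 95.9% identity to *Dppa5a* over 417 bases, was at 11.9 to 54.9 TPM and had at most 17.7% as many reads as *Dppa5a*. For *Dppa3*, whose reads are few, adding the reads of its copies, an alternative chosen after seeing the data, took the ratio of mean levels between knockout and wild-type from 36.6 to 12.2 at day 0 and from 3.38 to 2.54 at day 1. The values of *Dppa3* are therefore uncertain in size.

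Over 3 days of RA, 5 of the 6 genes in wild-type cells and 6 of 6 in knockout cells were called lower than at day 0, where a call needs an adjusted p under 0.05 in limma and at least a 2-fold difference. The exception in wild-type cells was *Dppa3*, which had almost no reads at day 0. Among all genes tested, 9.68% were called lower and 16.1% higher in wild-type cells, and 8.04% lower and 13.8% higher in knockout cells. None of the 6 was called higher. Their median log2 difference was −2.18 in wild-type and −2.07 in knockout cells, against 0.10 and 0.03 over all genes. Because the genes were chosen on these values, nothing is read from these counts. In bulk RNA, fewer cells that hold a transcript and less of it per cell cannot be told apart.

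At day 1 the genes differed from one another. In wild-type cells *Tcl1* (log2 difference −3.20) and *Utf1* (−1.65) were called lower, among a background of 3.88% of genes called lower and 9.99% called higher. In knockout cells *Tcl1* (−1.47) was called lower, with 2.87% of all genes called lower and 4.07% higher. *Utf1* stood at −0.99 in knockout cells, just short of the 2-fold limit. *Dppa4* stood at −0.73 in wild-type and −0.28 in knockout cells, and *Dppa2* at −0.19 and 0.31. The median over all genes was 0.17 in wild-type and 0.02 in knockout cells, and the values of single genes are relative to it. With the libraries scaled to an equal median, no value of the 6 genes at day 1 changed sign.

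**Figure D2:**
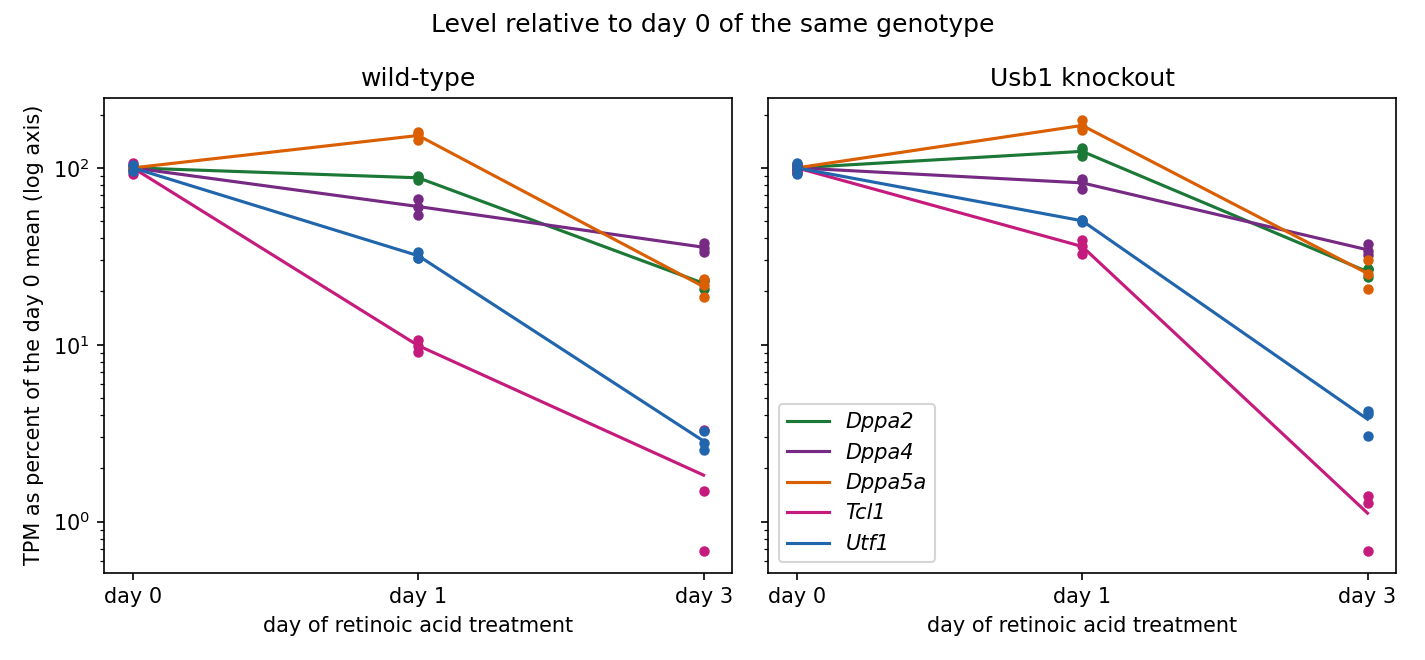
Level at each day as a percent of the day 0 mean of the same genotype, on a log axis, for the 5 genes with reads in every library. Points are libraries and lines join group means. *Dppa5a* peaks at day 1 (152% and 174%), while *Tcl1* at day 1 lies at 9.89% in wild-type and 35.9% in knockout cells.

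Between the genotypes at day 0, *Dppa3* was called higher in knockout cells (log2 difference 2.32, SE 0.45), and no gene of the 6 was called lower, where 1.60% of all genes were called higher and 1.45% lower. No wild-type library except replicate 3 of day 1, at 2.72 TPM, had *Dppa3* at the 1 TPM that testing needs. *Dppa3* thus entered the comparisons only with knockout libraries, so its calls at days 0 and 1 are tilted by the filter. *Tcl1* stood at 0.97 (SE 0.28), *Utf1* at −0.52 (SE 0.12), *Dppa4* at −0.35 (SE 0.09), *Dppa2* at −0.28 (SE 0.07) and *Dppa5a* at 0.12 (SE 0.13). Without wild-type replicate 1, the library that stood apart, *Dppa3* was at 2.16 and *Tcl1* at 0.87. With only the libraries of the groups compared, none of the 6 was called, and with an equal median, voom on recovered reads or without wild-type replicate 2 *Tcl1* was called as well. With a pseudocount of 0.1 the value of *Dppa3* was 4.64. The genes of the group thus lay on both sides of 0, with a median of −0.08 against 0.00 over all genes.

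At day 1, *Dppa3* (1.37, SE 0.40) and *Tcl1* (2.71, SE 0.25) were called higher in knockout cells, and none lower, where 0.462% of all genes were called higher and 1.76% lower. The call of *Dppa3* was lost without any 1 of 5 of the 6 libraries of day 1, and its value was lowest, at 0.96, without wild-type replicate 2. The other 4 genes stood between 0.09 (*Dppa4*) and 0.31 (*Dppa5a*). All 6 were above 0, with a median of 0.26, while the median over all genes was −0.13. As the 6 were chosen on these values, nothing is read from their shared sign. At day 3 none of the 6 was called, where 0.521% of all genes were called higher and 0.773% lower. The values at day 3 ran from −0.40 (*Dppa4*, SE 0.08) to 0.36 (*Dppa5a*, SE 0.12). *Tcl1* stood at 0.24 (SE 0.25), and without wild-type replicate 3 at −0.07.

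**Figure D3:**
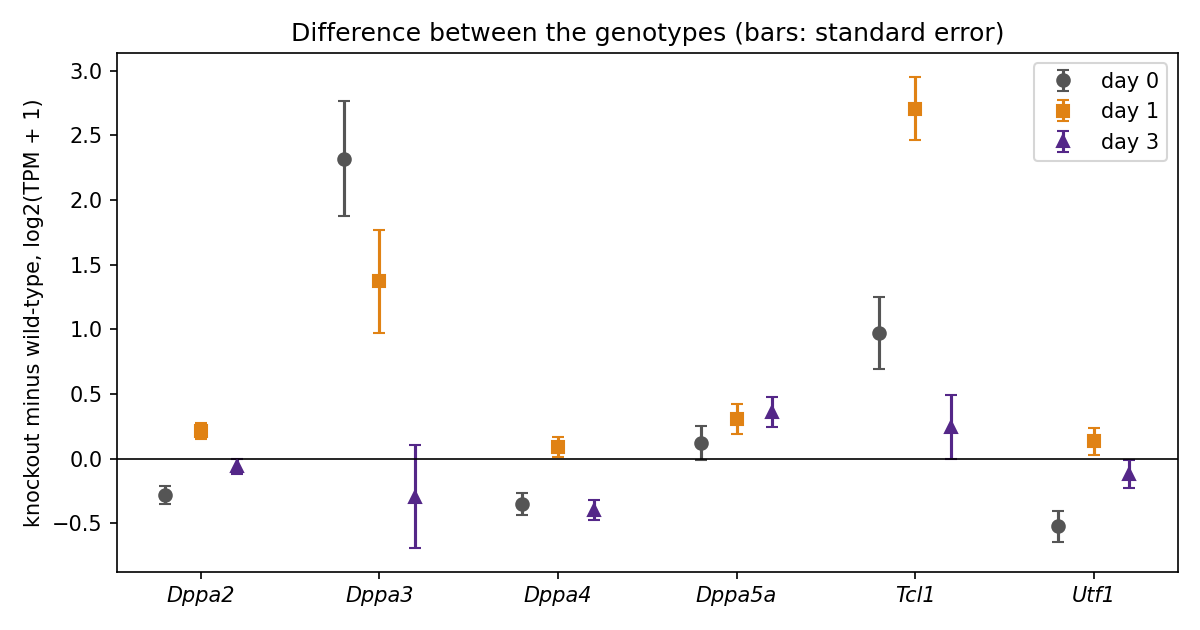
Knockout minus wild-type on the log2(TPM + 1) scale for each gene at days 0, 1 and 3, with bars for the standard error of the fit. *Tcl1* stands at 0.97, 2.71 and 0.24 and *Dppa3* at 2.32, 1.37 and −0.29 over the 3 days, while the other 4 genes lie between −0.52 and 0.36.

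The response to RA was also compared between the genotypes as the difference of the 2 differences from day 0. For day 1, *Tcl1* was called, with its value 1.74 (SE 0.37) higher in knockout cells, and none was called lower, against 0.187% of all genes called higher and 0.672% lower. All of *Dppa2* (0.49), *Dppa4* (0.45), *Dppa5a* (0.19) and *Utf1* (0.66) were also above 0, and *Dppa3* was at −0.94 (SE 0.60). For day 3, *Dppa3* was called lower, at −2.61 (SE 0.60), and none was called higher, against 1.25% of all genes called lower and 1.17% higher. The wild-type libraries at day 0 held 0 and 1 reads of *Dppa3*, so a fall could hardly show there. Between the genotypes *Dppa3* stood at 2.32 at day 0 and −0.29 at day 3, so its value here largely restates the difference at day 0. The call of *Tcl1* was lost without any 1 of 9 of the 11 libraries compared and with a pseudocount of 0.1, while its value stayed between 1.64 and 1.90 under all alternatives. The call of *Dppa3* was lost without wild-type replicate 1 of day 0 or of day 3, and *Dppa3* was not tested with a minimum TPM of 5. *Tcl1* stood at −0.73 for day 3, *Dppa4* at −0.05, and *Dppa2*, *Dppa5a* and *Utf1* between 0.22 and 0.41. The comparisons of day 1 and day 3 share the day 0 libraries.

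Across the 17 libraries, which share the 3 days of RA, Pearson's r of log2(TPM + 1) was 0.97 between *Dppa4* and *Utf1*, 0.96 between *Dppa2* and *Dppa5a*, 0.96 between *Dppa2* and *Utf1*, and 0.92 between *Dppa2* and *Dppa4*. *Dppa3* had the lowest values, from 0.41 to 0.63 with the other 5 genes. Among 11034 genes whose group means spanned at least 1 log2 unit, the gene most like *Tcl1* was *Ncl* (r = 0.985), followed by *Triml1* (0.984) and *Adgrb1* (0.983). The group means of *Adgrb1* at days 0 and 1 were 46.5 and 9.55 TPM for wild-type, against 71.0 and 31.0 TPM for knockout cells. All genes named here as most like a member were picked by r over these same libraries. Their likeness to it in day or genotype therefore follows from the choice. Nearest to *Utf1* were *Slc7a7* (0.995), *Nr0b1* (0.992), which encodes the nuclear receptor Dax1, and *Ccne1* (0.991), which encodes cyclin E1. Nearest to *Dppa5a* were *Eif4a1* (0.993), a translation initiation helicase, *Rpl10l* (0.989) and *Cenpm* (0.987), and all of these had their highest mean at day 1. *Dppa2* was most like *Mylpf* (0.991), *Accsl* (0.991) and *Zfp961* (0.989), and *Dppa4* most like *Cyb5r1* (0.985), *Tmem179* (0.979) and *L1td1* (0.975). *Dppa3* was most like *Ddn* (0.922), *Gpt2* (0.854) and *Eif4ebp1* (0.852), and the last of these, a repressor of cap-dependent translation, was at 239 and 254 TPM in wild-type against 437 and 426 TPM in knockout cells at days 0 and 1.

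The nearest tested protein-coding genes on each side were examined next, 20 in all beside the members themselves. Of these 20, 10 were called lower and 1 higher at day 3 in wild-type cells, and 6 lower and 1 higher in knockout cells. Over all genes tested, 9.68% were called lower and 16.1% higher in wild-type cells, and 8.04% and 13.8% in knockout cells. Beside *Dppa2*, the germ line gene *Morc1* was called lower at day 3 in wild-type (log2 difference −2.25) and knockout cells (−1.67), at a level of 9.63 and 6.04 TPM at day 0. *Nectin3* and *Dzip3*, on the outer sides, were not called. *Dppa3* lies 77.2 kb from *Nanog* and 16.3 kb from *Gdf3*. *Nanog* was called lower at day 3, at −5.12 in wild-type and −3.20 in knockout cells, and *Gdf3*, a ligand of the TGF-β family, at −3.85 and −3.29. Neither *Nanog* nor *Gdf3* was called between the genotypes at day 0 (−0.02 and −0.28), where *Dppa3* stood at 2.32. Beside *Dppa5a*, *Ooep*, of the same KH-domain family and 7.93 kb away, was called lower at day 3 (−3.96 in wild-type and −3.22 in knockout cells). *Kndc1*, 2.25 kb from *Utf1*, was called lower at day 3 in both genotypes (−2.04 and −1.96), at a level of 7.73 and 7.92 TPM at day 0. The neighbours of *Tcl1* (*Syne3*, *Glrx5*, *Tunar* and *D430019H16Rik*) were not called between the genotypes at any day and stood between −0.57 and 0.43 at day 1. *D430019H16Rik* was called higher at day 3 in both genotypes (1.16 and 1.86), opposite to *Tcl1*.

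**Figure D4:**
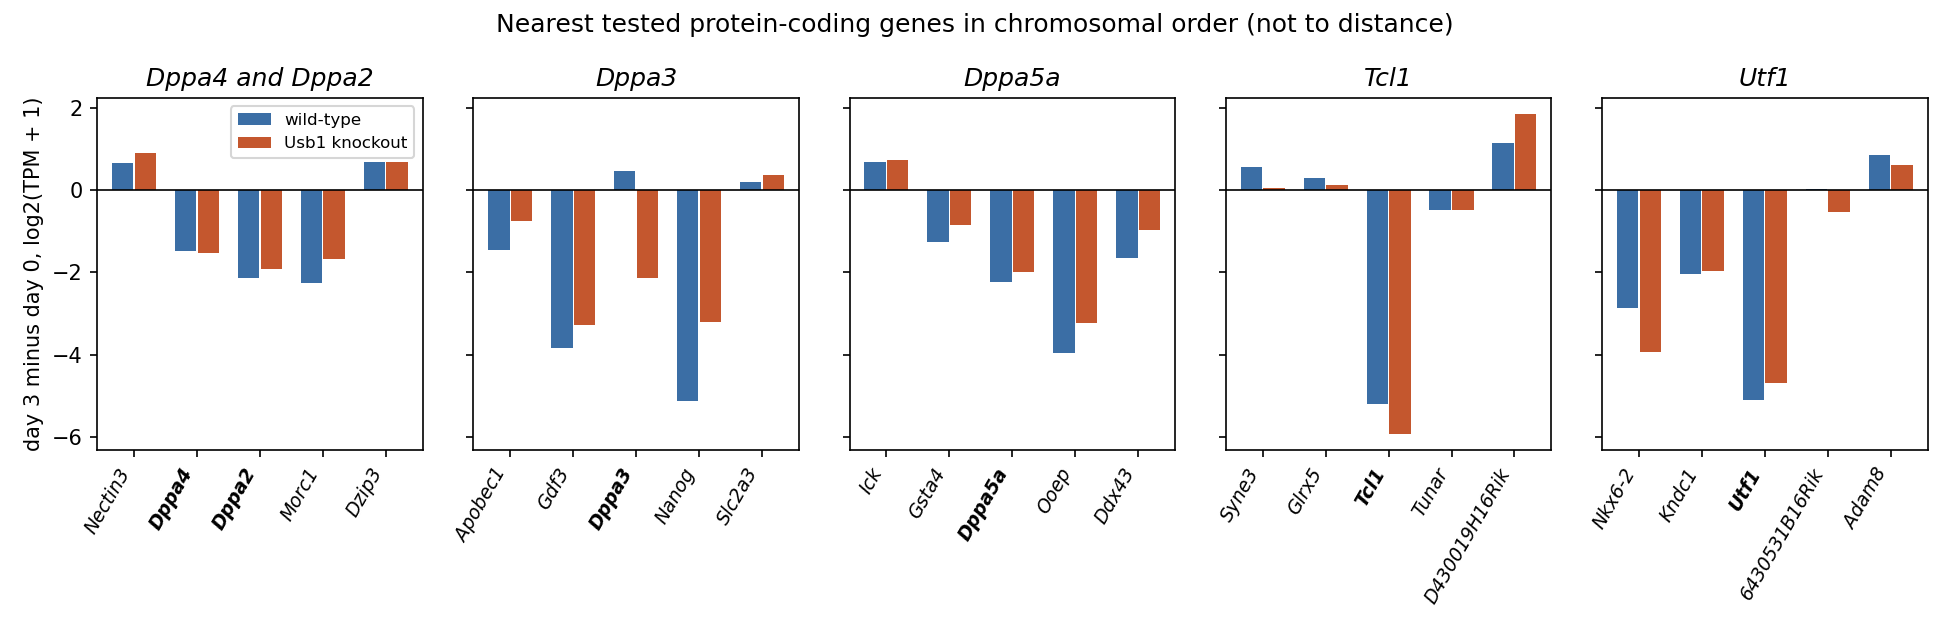
Day 3 minus day 0 on the log2(TPM + 1) scale for each gene (bold) and its nearest tested protein-coding neighbours in chromosomal order, with no scale of distance. Blue bars are wild-type and orange bars *Usb1* knockout cells. Bars below 0 are lower at day 3, such as *Gdf3* (−3.85 and −3.29) and *Ooep* (−3.96 and −3.22), while *Glrx5* beside *Tcl1* stands at 0.31 and 0.13.

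Genes with known ties to the 6 were followed by lists. Of 20 genes of the 2-cell programme, which lies downstream of Dppa2 and Dppa4, 7 were tested, and the 20 summed to 0 to 14.9 TPM in a library. Between the genotypes at day 1, the list median was −0.86, and 1.76% of all genes were called lower and 0.462% higher. Of the 7, 3 were called lower in knockout cells and none higher. These were *Zscan4a*, *Zscan4d* and *Zscan4f*, zinc finger genes of the 2-cell stage. *Zscan4d* had 2.49 ± 0.779 TPM in wild-type against 0.711 ± 0.0806 TPM in knockout cells (n = 3 each, limma adjusted p = 0.0302). At the same day *Dppa2* and *Dppa4* stood at 0.21 and 0.09. In wild-type cells 4 of the 7 were called higher at day 1 (*Zscan4a*, *Zscan4d*, *Zscan4f* and *Usp17le*), and only *Zscan4d* at day 3. Over all genes, 9.99% and 16.1% were called higher on these days. *Zscan4f* and *Usp17le* entered the comparisons only through wild-type libraries of day 1, with up to 2.69 and 1.5 TPM there. In other groups they reached at most 0.993 and 0.851 TPM. Calls and medians of the list at day 1 are thus tilted by the filter. No gene of the list was called over time in knockout cells, between the genotypes at days 0 and 3, or in the difference of the responses. The wild-type sum at day 0 was 0 TPM in replicate 1, the library that stood apart, and 5.34 TPM in replicate 2, and the *Zscan4* genes are near-identical copies, so these low values are uncertain.

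Of 12 relatives of the members, 4 were tested. *Ooep*, and *Khdc3*, a component of the maternal complex of the egg, were called lower at day 3 in both genotypes. *Khdc3* went from 13.8 ± 0.738 to 0.624 ± 0.716 TPM in wild-type cells. It was also called lower at day 1 in both genotypes. *Dppa1* was called higher at day 3 in knockout cells against wild-type (2.07 ± 0.446 against 0.332 ± 0.232 TPM). It was at 0 in all libraries of days 0 and 1 and at most 0.589 TPM in wild-type at day 3. It thus entered the comparisons only through the knockout libraries of day 3, so the call is no independent test. The other one tested, *Mtcp1*, was not called. None of the 5 *Tcl1b* genes, relatives of *Tcl1*, reached the level for testing, and *Khdc1a*, *Khdc1b* and *Khdc1c* were at 0 in every library.

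Among partners and effectors of the members, *Uhrf1*, *Dnmt1*, *Tet3*, *Akt1*, *Akt2*, *Dcp1a*, *Pias4* and *Kmt2b* were all tested. None of these was called between the genotypes at any day, nor in the difference of the responses. *Uhrf1*, the cofactor of maintenance methylation that Dppa3 binds, was called lower at day 3, from 432 ± 17.7 to 164 ± 10.5 TPM in wild-type and from 448 ± 10.6 to 198 ± 8.97 TPM in knockout cells. *Tet3*, the dioxygenase, was called higher at day 3, from 5.03 ± 0.0206 to 26.2 ± 3.95 TPM in wild-type and from 4.53 ± 0.423 to 22.2 ± 5.27 TPM in knockout cells. *Akt1*, which encodes a kinase that Tcl1 binds, was called higher at day 3 in both genotypes, from 30.2 ± 5.22 to 123 ± 0.922 TPM in wild-type cells. In wild-type cells *Tet3* was also called higher at day 1. From day 0 to day 3 *Tcl1* thus ran opposite to *Akt1*. *Akt2* was not called, and went from 45.92 to 41.95 TPM in wild-type and from 36.94 to 43.93 TPM in knockout cells.

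Of 10 other genes of ES cells and preimplantation embryos, 8 were called lower at day 3 in wild-type and 7 in knockout cells, and none higher. Over all genes tested, 9.68% and 8.04% were called lower. At day 1, 5 and 4 of the 10 were called lower, against 3.88% and 2.87% of all genes. *Dnmt3l*, a cofactor of de novo methylation, was the 1 gene of the list called between the genotypes, lower in knockout cells on each day. At day 0 it had 73.4 ± 8.19 TPM in wild-type (n = 2) against 15.7 ± 0.301 TPM in knockout cells (n = 3), with a limma adjusted p of 1.67e-07. In the difference of the responses, *Eras* was called higher for day 1 and *Tdgf1* for day 3. Of 10 transcription factors of ES cells, 9 were called lower at day 3 and 4 at day 1 in each genotype, against the same shares of all genes. *Esrrb* was called higher in knockout cells at day 1 (240 ± 22.0 against 112 ± 4.10 TPM, n = 3 each), the day at which *Tcl1* differed most. At day 3 *Esrrb*, *Nanog* and *Prdm14* were called higher in knockout cells, while none of the 6 genes was.

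Markers of other cell types moved with the groups. The 6 markers of extraembryonic endoderm summed to 78.7 to 81.0 TPM in wild-type and 20.2 to 23.2 TPM in knockout libraries at day 1. Of the 6, 4 were called lower in knockout cells, against 1.76% of all genes. At day 3 the sums were 549 to 598 and 276 to 317 TPM, and 3 of 6 were called lower, against 0.773% of all genes. The 5 embryonic stem cell markers summed to 2780 to 2860 and 3530 to 3610 TPM at day 1, with knockout higher in sum. *Sox2* ran against that sum, with a lower day 1 mean in knockout (644.5 against 734.7 TPM, no overlap, not called). The other 4 had higher knockout means on that day. Day 3 sums were 254 to 294 and 481 to 543 TPM, again with knockout higher. Of the 7 germ cell markers, none was called between the genotypes at days 0 and 1, where *Dppa3* was, and *Prdm1* was called higher in knockout cells at day 3. Their sum was 97.7 to 109 TPM in wild-type and 80.8 to 93.4 TPM in knockout libraries at day 0. *Ddx4* (21.95 against 17.98 TPM, no overlap) and *Prdm1* (7.13 against 5.434 TPM, with overlap) had higher knockout means there, and the others had lower ones. The trophoblast marker sum was 25.2 to 26.4 and 35.9 to 38.1 TPM at day 0 with no gene called, and *Elf5* was at 0 in all of those libraries. *Tfap2c* had a mean of 21.42 TPM in wild-type and 34.02 TPM in knockout cells there, while *Cdx2*, *Eomes* and *Krt7* had lower knockout means. At day 3 the sum was 83.8 to 91.9 and 118 to 123 TPM, with *Tfap2c* called higher in knockout cells. *Cdx2* ran against that sum, with a lower knockout mean (4.686 against 8.335 TPM, no overlap, not called). The fibroblast marker sum was at most 9.01 TPM at days 0 and 1, and at day 3 it was 40.8 to 49.9 TPM in wild-type and 62.4 to 70.5 TPM in knockout libraries, with none called between the genotypes. The part of these cell types in the levels of the 6 genes was not tested.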

How the data were processed

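RNA sequencing of R1 mouse embryonic stem cells gave 17 libraries of 6 groups of genotype and day. The submitters' processing notes name HISAT2 2.1.0, StringTie 1.3.6 and the build GRCm38.p6, and the authors made NEBNext Ultra libraries. The authors deposited TPM, calculated from read counts and gene lengths. The counter is not given in the sources used here. Of 54532 identifiers, 54495 matched GENCODE M21. Reads were recovered as TPM multiplied by exon length and divided by a library step, and 95.9% to 96.7% of the values above 0 came out whole, to within 0.01.

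Groups were taken from the labels. limma 3.58.1 (R 4.3.3) with a variance trend was fitted to log2(TPM + 1) of all 17 libraries with 6 group means, for 21871 genes (a minimum TPM of 1 in 2 or more libraries). This scale understates the change of low genes. P-values were adjusted by Benjamini-Hochberg over all genes tested within each comparison. A call needed an adjusted p under 0.05 and 2-fold. The fit was tested on simulated data.

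The 6 genes and the lists were chosen with earlier results of these data known. The list of partners and effectors is described without an item that is not reported here. The genes named are the 6, genes of the lists, the nearest 2 tested protein-coding genes on each side, and the 3 genes with the highest r. Copies were sought with BLAST 2.17.0. Tables were made with pandas 2.3.3 and numpy 2.4.6 and figures with matplotlib 3.10.9, in Python 3.11.15. Alternatives tried were no filter, a pseudocount of 0.1, TPM of at least 5, quantile normalization, an equal median, the groups compared alone, the replicate block, limma's voom on recovered reads, and each library left out in turn.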

Additional observations from a re-analysis of the deposited data

Results flagged for a closer look

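For 2 of the 6 genes, both chosen with these values known, the response to RA stood apart between the genotypes. The limma calls describe the values that chose the genes and are no independent test. The log2 difference from day 0 to day 1 of *Tcl1* was 1.736 higher in *Usb1* knockout than in wild-type cells (−1.47 against −3.20). Its call was lost without any 1 of 9 of the 11 libraries compared and with a pseudocount of 0.1, and its value ranged from 1.64 to 1.90 under all alternatives. The log2 difference from day 0 to day 3 of *Dppa3* was −2.613 in the same contrast (−2.14 in knockout and 0.47 in wild-type cells). The wild-type libraries at day 0 held 0 and 1 reads, so a fall of *Dppa3* could hardly show there. Its call was lost without wild-type replicate 1 of day 0 or of day 3, and it was not tested with a minimum TPM of 5.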

How the results depend on the processing

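Of 1055 values recomputed under the alternatives, 940 stayed within 1 SD, or within 1.5 times for a count, and no called value changed sign. For genes called between the genotypes at day 0 (668), the count was 73 with only the libraries of the groups compared and 1280 with voom on recovered reads, and leaving out 1 library gave 384 (without wild-type replicate 1) to 2282 (without wild-type replicate 2). Genes called at day 1 against day 0 in knockout cells numbered 1519, and 2317 with voom. For the difference of the responses, leaving out 1 library gave 101 (without wild-type replicate 1 of day 1) to 1822 for day 1 (188 in all libraries) and 353 to 1968 for day 3 (529, and 258 with only the groups compared), both highest without wild-type replicate 2 of day 0.

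Of the 6 genes, those called between the genotypes at day 0 numbered 1, and 0 with TPM of at least 5 (*Dppa3* was then not tested) or only the groups compared. They were 2, with *Tcl1* added, with an equal median, voom or the replicate block, and 1 to 2 without 1 library. At day 1 the number was 2, and 1 (*Tcl1*) with a pseudocount of 0.1, TPM of at least 5 or only the groups compared, and 1 to 2 without 1 library, with 5 of the 6 libraries of that day each giving 1. At day 1 against day 0 in knockout cells it was 1, and 2 with an equal median (*Utf1* added), and 1 to 2 without 1 library, with 2 without knockout replicate 1 of day 0. For the difference of the responses at day 1 it was 1, with 0 at a pseudocount of 0.1, and 0 to 1 without 1 library. The count of 0 came without wild-type replicate 1 of day 0 and without any 1 of the other libraries compared, except wild-type replicate 2 of day 0 and knockout replicate 2 of day 1. For day 3 it was 1, with 0 at TPM of at least 5, and 0 to 1 without 1 library, with 0 without wild-type replicate 1 of day 0 or of day 3. The cause of these shifts was not tested, except that fewer samples or genes enter by construction.

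Same-numbered libraries had r of −0.13 to 0.124 in 40 pairs, with 1 over 0.1. Each r is of deviations from group means of only 2 or 3 libraries, so it cannot tell whether such libraries shared a batch. The replicate block changed no other count of the 6 genes and gave 610 genes called between the genotypes at day 0. In all, 3 uncalled values changed sign without 1 library, *Dppa4* in the day 3 difference of responses (0.001), *Tcl1* between the genotypes at day 3 (−0.065) and *Utf1* there (0.028). Depth limits *Dppa3*, whose log2 difference at day 0 was 4.64 with a pseudocount of 0.1.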
